A study of Mus musculus with 4 samples.

Results

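The heat shock proteins and their DnaJ partners are molecular chaperones, and 60 of the 12393 genes with a single-symbol probe set on the array belong to them. Members were taken by symbol: Dnaja, Dnajb or Dnajc with a family number, Hspa, Hspb, Hspd, Hspe or Hsph with a number, and Hsp90. Each gene is given by its brightest probe set. They comprise 4 Dnaja, 12 Dnajb, 22 Dnajc, 11 Hspa and 6 Hspb genes, and 5 genes of the chaperonins and large chaperones (Hspd1, Hspe1, Hsph1, Hsp90aa1 and Hsp90b1). Hspbp1 and Hspbap1, whose names also begin with Hspb, are cochaperones outside the families and were not counted. Hsp90ab1 was not analysed here.

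The muscle was gastrocnemius, from the calf. Transgenic animals (MCK-PPARa) carry extra PPARα, a nuclear receptor that senses fatty acids, in their muscle, and littermates without the transgene (NTG) served as controls. MCK stands for muscle creatine kinase, whose promoter drives expression in striated muscle. There were 4 arrays, 2 per genotype, and the series speaks of 2 mice of each. The labels number the arrays but name no animal for them. The p-values therefore speak only of the spread among these arrays, which may be technical, and strain, age, sex and any treatment were not given in the sources used here.

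HSP70 proteins (Hspa genes) bind unfolded stretches of other proteins and release them in a cycle driven by ATP. DnaJ proteins start that cycle by handing over the client and triggering ATP hydrolysis, while HSP110 proteins (Hsph1, Hspa4 and Hspa4l) exchange the nucleotide. The chaperonin of Hspd1 and Hspe1 folds proteins imported into mitochondria, and HSP90 matures kinases and receptors. Small heat shock proteins (such as Hspb1 and Hspb8) hold damaged proteins and protect the contractile apparatus. The heat shock factor family switches on many of these genes through a repeated element, and the unfolded protein response does so for those of the endoplasmic reticulum through another.

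Both kinds of element can be seen in RefSeq promoters (build GRCm38.p6), which were at hand for 49 of the 60 members as windows from 250 bases before to 50 bases after a start. The heat shock element was searched on both strands as GAA, TTC and GAA in turn with 2 bases of any kind between them, or as its complement TTC, GAA and TTC. It was found for 4 members (Hspd1, Hspe1, Hsph1 and Dnajb6), or 8.16%, against 0.662% of all 27025 genes with a window. Hspd1 and Hspe1 are counted separately here although they hold the same stretch. The endoplasmic reticulum stress element, CCAAT and CCACG with 9 bases of any kind between them on either strand, was found for Hspa5, Hsp90b1 and Dnajc3, or 6.12%, against 0.137% of all genes. The PPAR element, AGGTCA repeated after 1 base on either strand, was found in 0 of the 49 members and in 13 of all genes, or 0.0481%. Matches are a description of letters in these windows only. Near matches were not searched, so a member without a match may still hold a less exact element. Members without a window included Dnajc12, Hspa8, Hspa9, Hspb2 and Hsp90aa1. The stretches below show the matched letters in capitals on the strand of the gene, and in the second Hsp90b1 stretch the element reads as its complement. The first is shown because Hspd1 and Hspe1 share it, and the others because they hold either element ahead of a start. The Hsph1 match lies after its starts and is not printed.
Hspe1, chr1:55088053-55088082, plus strand: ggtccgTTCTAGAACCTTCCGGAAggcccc
Dnajb6, chr5:29735844-29735873, plus strand: agctccgaGAATCTTCCGGAAcgctagacc
Hspa5, chr2:34772020-34772049, plus strand: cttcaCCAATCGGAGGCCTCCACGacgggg
Hsp90b1, chr10:86705632-86705661, minus strand: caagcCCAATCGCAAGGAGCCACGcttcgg
Hsp90b1, chr10:86705527-86705556, minus strand: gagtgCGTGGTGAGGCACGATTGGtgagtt
Dnajc3, chr14:118937822-118937851, plus strand: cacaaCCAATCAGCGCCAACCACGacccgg

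Hspd1 and Hspe1 are transcribed away from each other on chromosome 1. The Hspe1 start lies at 55088148 on the plus strand, and one of the Hspd1 starts lies 216 bases from it at 55087932 on the minus strand. The capitals of the Hspe1 line, at 55088059 to 55088076, hold both forms of the heat shock element in overlap and lie between these starts. Counted on each gene's own strand, the first base of the 18 is at -89 from the Hspe1 start and at -144 from that Hspd1 start. A second Hspd1 start at 55088243 lies on the far side of the Hspe1 start.

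The targeted gene was checked first. The controls read 633 (replicate 1) and 2674 (replicate 2) for Ppara, and the transgenic arrays read 7969 and 15226, without overlap. The difference was 8.02-fold, with an SE of 0.62 on the scale of log2(signal + 64.2) that all differences below use (n = 2 per group), and a limma adjusted p of 0.21, or 0.00085 with the replicate number as a block. It was 3.53 on that scale in the replicate 1 pair and 2.48 in the replicate 2 pair. All 10 markers of skeletal muscle on the list were on the array, with summed signals from 1240560 to 1449950 on the 4 arrays. Summed adipocyte markers (5 of 7 on the array, with leptin, Lep, at 76.9 to 125) were 7615 and 7935 in controls against 17917 and 28942 in transgenic muscle. Summed slow-fibre markers (6 of 6) were 57383 and 108773 in controls against 35356 and 50698 in transgenic muscle. Summed macrophage markers (6 of 6) were 8263 and 8980 in controls and 10335 and 11284 in transgenic muscle, and endothelial markers (5 of 5) 9089 and 11068 against 13313 and 14238. The red blood cell markers at hand (2 of 4) were 2921 and 3389 against 3771 and 4432. Summed smooth muscle markers (4 of 4) were 15350 and 17462 against 14170 and 15238, and summed fibroblast and nerve markers overlapped. A sum follows its brightest genes: Acta2 of smooth muscle read 11339 and 14856 against 10938 and 12112, with overlap. Fabp4, the brightest of the adipocyte list, read 3820.5 and 4186 against 10839 and 21784, without overlap. Among tested markers, both transgenic samples lay above both controls for 3 of 4 adipocyte and 3 of 5 macrophage genes. The same held for 3 of 5 endothelial and 1 of 2 red blood cell genes, beside 20.4% of all genes. Transgenic samples lay below both controls for 4 of 6 slow-fibre and 0 of 3 smooth muscle genes, beside 13.8% of all genes. The part of these differences in the values below was not tested, and in a whole muscle fewer cells of a type and less RNA per cell cannot be told apart. The arrays also differed by replicate number: the 5′ probe set of 18S rRNA gave 2202 and 2313 for replicate 1 but 28.9 and 44.7 for replicate 2.

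No chaperone gene passed the comparison of MCK-PPARa with NTG muscle. Of the 60 members 52 passed the filter on dim probe sets (mean signal of at least 455.3), and their limma adjusted p ranged from 0.30 to 0.998. At an unadjusted p under 0.05 there were 2 of the 52, Dnajc12 and Dnajb4, both lower in the transgenic muscle. That is 3.85%, beside 5.83% of all 8402 genes tested. Over all genes 0.0595% passed at an adjusted p under 0.05, which is 5 genes. With the replicate number as a block 2.51% of all genes passed, and of the 52 members 1 passed (1.92%), Dnajc12 (limma adjusted p = 0.017).

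In the same fit 21 members had a difference above 0 (40.4%, beside 55.5% of all genes) and 31 below 0. Their median was -0.11, beside 0.054 over all genes. The median absolute difference was 0.30 for the members and 0.28 for all genes. Both transgenic samples lay above both controls for 7 members (13.5%, beside 20.4% of all genes) and below both for 10 (19.2%, beside 13.8%). The other 35 overlapped. Between the arrays that share a replicate number, 11 members were higher in the transgenic sample in both pairs, 18 were lower in both, and 23 went opposite ways. These pair counts were not made over all genes, so they have no background beside them.

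By family, the median difference was 0.15 for the 4 Dnaja genes, -0.10 for 9 Dnajb, -0.22 for 19 Dnajc, -0.0082 for 9 Hspa, -0.34 for 6 Hspb and 0.43 for the 5 chaperonin and large chaperone genes. Some of these medians differed in sign between the replicate pairs. The Hspa median was 0.21 for the replicate 1 pair and -0.19 for the replicate 2 pair, and that of the chaperonins and large chaperones was 0.72 and -0.052. For Hspb genes it was -0.32 and -0.44, and for Dnajc genes -0.18 and -0.034. The medians of all 6 families moved when single arrays were left out. Without 1 array in turn they ran from -0.23 to 0.37 for Dnaja, with the lowest when MCK-PPARa replicate 2 was left out and 0.0022 without NTG replicate 1. The Dnajb median was -0.26 without MCK-PPARa replicate 2. That of the chaperonins and large chaperones was 0.10 without MCK-PPARa replicate 1 and was 0.28 without NTG replicate 1, and the Hspa median ran from -0.29 without MCK-PPARa replicate 1 to 0.12 without MCK-PPARa replicate 2. The range was -0.24 to 0.051 for Dnajc, with the highest when MCK-PPARa replicate 1 was left out and -0.015 without NTG replicate 2. The Hspb median ran from -0.64 without MCK-PPARa replicate 1 to 0.021 without MCK-PPARa replicate 2, and was -0.044 without NTG replicate 1 and -0.54 without NTG replicate 2.

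**Figure D1:**
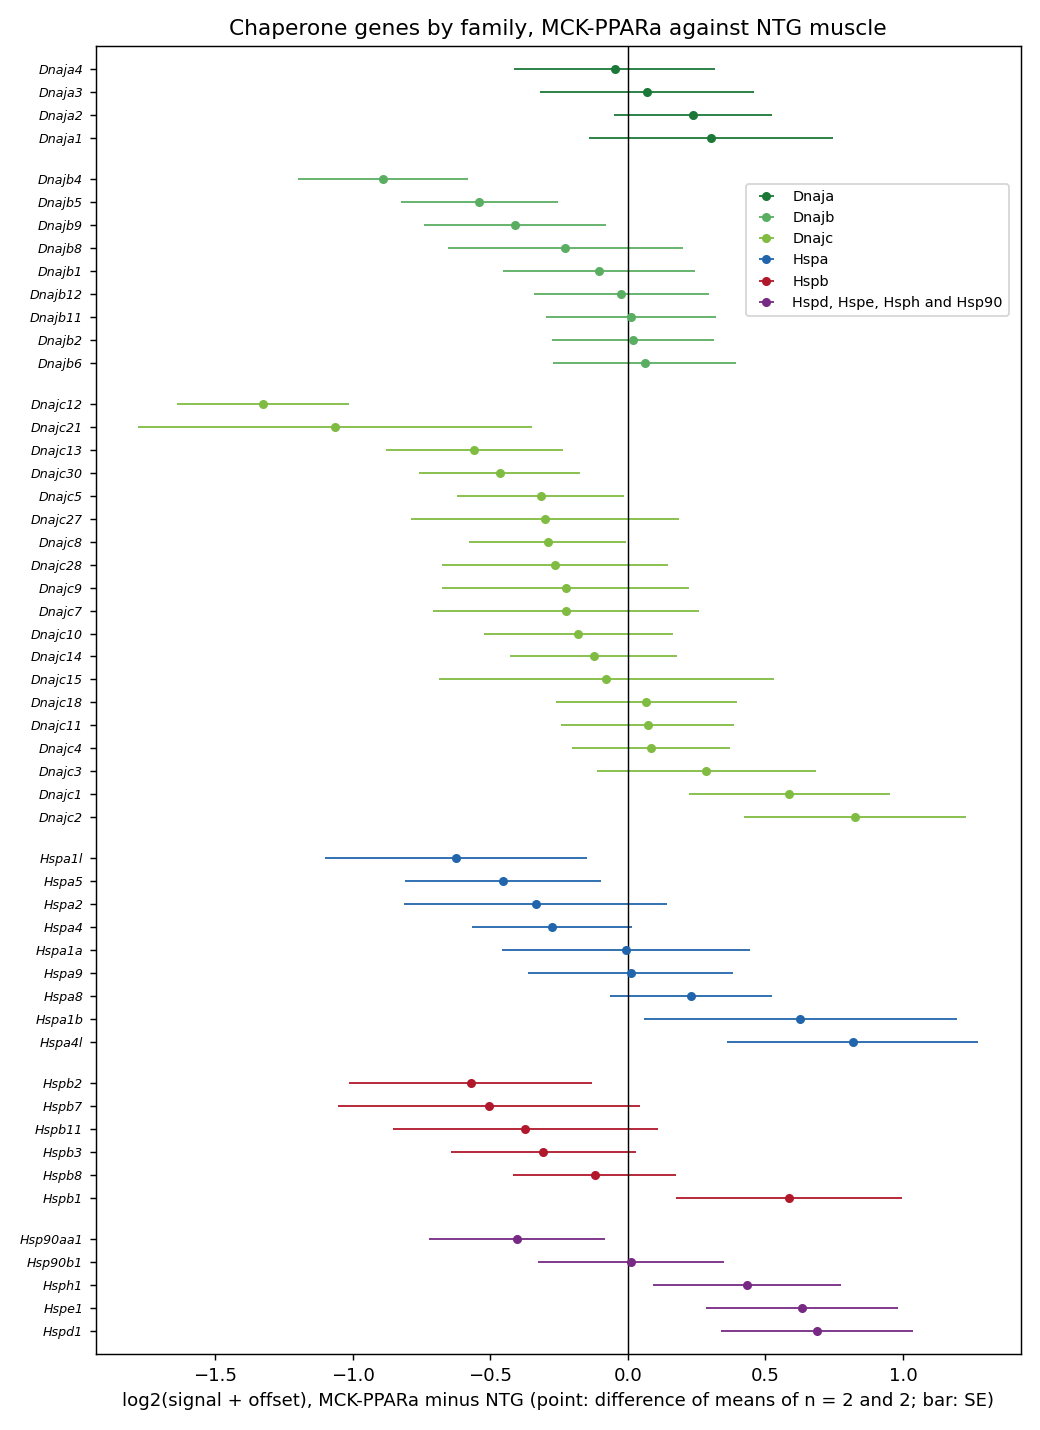
Difference between MCK-PPARa and NTG muscle of the 52 chaperone genes tested, as log2(signal + 64.2) on the horizontal axis, with 1 row per gene and a colour per family. Points are differences between means of 2 arrays per genotype and bars are SE. Dnajc12 lies farthest from 0 at -1.33, and the families spread across both sides of 0.

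Among the J proteins, Dnajc12 (Entrez gene 30045) had the largest difference of any member tested. It encodes a small HSP70 partner known for the folding of aromatic amino acid hydroxylases. The controls read 3087 (replicate 1) and 2464 (replicate 2), against 1196 and 942 on the transgenic arrays. The genotypes did not overlap, with MCK-PPARa muscle at a level 2.51-fold lower (-1.33 ± 0.31, SE, n = 2 per group; 95% interval -2.05 to -0.60; limma adjusted p = 0.30). The difference was the same size in both replicate pairs, -1.32 for replicate 1 and -1.33 for replicate 2. With 1 array left out its adjusted p ranged from 0.054 to 0.61 in limma. A single probe set measures Dnajc12, so no other probe set could be set beside it.

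Dnajb4 (Entrez gene 67035), a class B J protein of the cytosol known in muscle through an inherited myopathy, read 3496 and 4577 in controls against 1935 and 2340 in transgenic muscle. The groups did not overlap, and the difference was -0.89 ± 0.31 (95% interval -1.60 to -0.18; limma adjusted p = 0.65, and 0.069 with the replicate block). Its other probe set gave 1376 and 2056 against 1023 and 768, or -0.88, so both sets of probes put the transgenic samples lower. Dnajb5 (Entrez gene 56323), a cytosolic J protein of muscle and heart linked to redox control of histone deacetylases, was at 5690 and 5959 in controls against 3770 and 4212 in transgenic muscle (-0.54 ± 0.29, limma adjusted p = 0.92).

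The other probe sets of Dnajb5 showed larger differences in the same direction. One read 6362 and 5865 in controls against 3258 and 2412 in transgenic muscle, a difference of -1.11. The other read 1968 and 3273 against 512 and 1241, a difference of -1.59. When every probe set above the filter was tested separately, their limma adjusted p was 0.47 and 0.49 over 12453 probe sets. With its 3 probe sets averaged, Dnajb5 was at -1.08 (limma adjusted p = 0.32), so the size of its difference depends on the probe set. On all 3 probe sets of Dnajb5 and both of Dnajb4, neither transgenic sample reached the lower of the controls.

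Other class B members did not pass the test, and some differed between probe sets. Dnajb9, a cofactor of HSP70 in the endoplasmic reticulum, was at 6609 and 7343 in controls against 4148 and 6593 in transgenic muscle (-0.41 ± 0.33). The upper transgenic sample lay just under the lower control, and the difference was -0.079 without MCK-PPARa replicate 1 but -0.74 when replicate 2 of that group was left out. Dnajb6, which keeps aggregation-prone proteins soluble and is mutated in a limb-girdle muscular dystrophy, was at 4011 and 5257 in controls against 3925 and 5853 in transgenic muscle (0.061 ± 0.332). These groups overlapped, and another Dnajb6 probe set read 354 and 340 against 572 and 1347, or 1.20. Both controls of that probe set lay under the filter signal of 455.3. Dnajb1, the main stress-inducible class B J protein, read 1468 and 1817 against 1181 and 1938 (-0.10 ± 0.35). The remaining class B genes tested, Dnajb2, Dnajb8, Dnajb11 and Dnajb12, had differences from -0.23 to 0.018, and all overlapped.

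Class A J proteins, which deliver unfolded clients to HSP70 and carry a zinc-binding region, did not pass the test. Dnaja2 read 2453 and 2319 in controls against 2883 and 2765 in transgenic muscle (0.24 ± 0.29), without overlap. Its other probe set overlapped, at -0.046. Dnaja1 was at 1635 and 1863 in controls against 1350 and 3451 in transgenic muscle (0.30 ± 0.44), with -0.26 in the replicate 1 pair and 0.87 in the replicate 2 pair. Dnaja4, a J protein of striated muscle, read 3358 and 6343 against 4305 and 4637 (-0.047 ± 0.365). The mitochondrial Dnaja3 read 2319 and 3426 against 2161 and 4050 (0.069 ± 0.389), and its sign turned under median centring (-0.033) and when all its probe sets were averaged (-0.016).

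The Dnajc class gathers J proteins with specialised tasks, and its 19 tested members ran from -1.33 to 0.83. At the upper end stood Dnajc2, a J protein that works at the ribosome, with 464 and 457 in controls against 916 and 817 in transgenic muscle (0.83 ± 0.40, limma adjusted p = 0.90). The NTG signals are close to the filter, and a second Dnajc2 probe set had the opposite sign (430 and 772 against 881 and 183, -0.41). Dnajc1, a membrane J protein of the endoplasmic reticulum named after its values were seen, was at 581 and 677 against 885 and 1072 (0.59 ± 0.37). Dnajc13, which acts in endosome traffic, read 1889 and 2677 against 1362 and 1667 (-0.56 ± 0.32), with both transgenic samples below both controls and -0.31 without NTG replicate 2. Dnajc8, a nuclear J protein tied to splicing, read 7964 and 8933 against 6807 and 6953 (-0.29 ± 0.29), also without overlap. Dnajc27, which carries a Rab-like GTPase region, read 2713 and 4281 against 1662 and 4539 (-0.30 ± 0.49), so here the spread within the transgenic group exceeded the difference.

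Dnajc21, singled out after its values were seen, had the second largest difference by size and the widest error (-1.07 ± 0.72). Its signals were 484 and 923 in controls against 593 and 124 in transgenic muscle, with 0.26 in the replicate 1 pair and -2.39 in the replicate 2 pair. The remaining 12 Dnajc members tested lay between -0.47 and 0.29. Of these Dnajc30, a mitochondrial J protein of the respiratory chain, was lower in both transgenic samples (3561 and 4072 against 2558 and 2936, -0.47 ± 0.29), and so was Dnajc5, the cysteine string protein of exocytosis (3522 and 3029 against 2304 and 2956, -0.32 ± 0.30). The 3 other Dnajc5 probe sets above the filter had the opposite sign, at 0.16, 0.24 and 0.065.

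**Figure D2:**
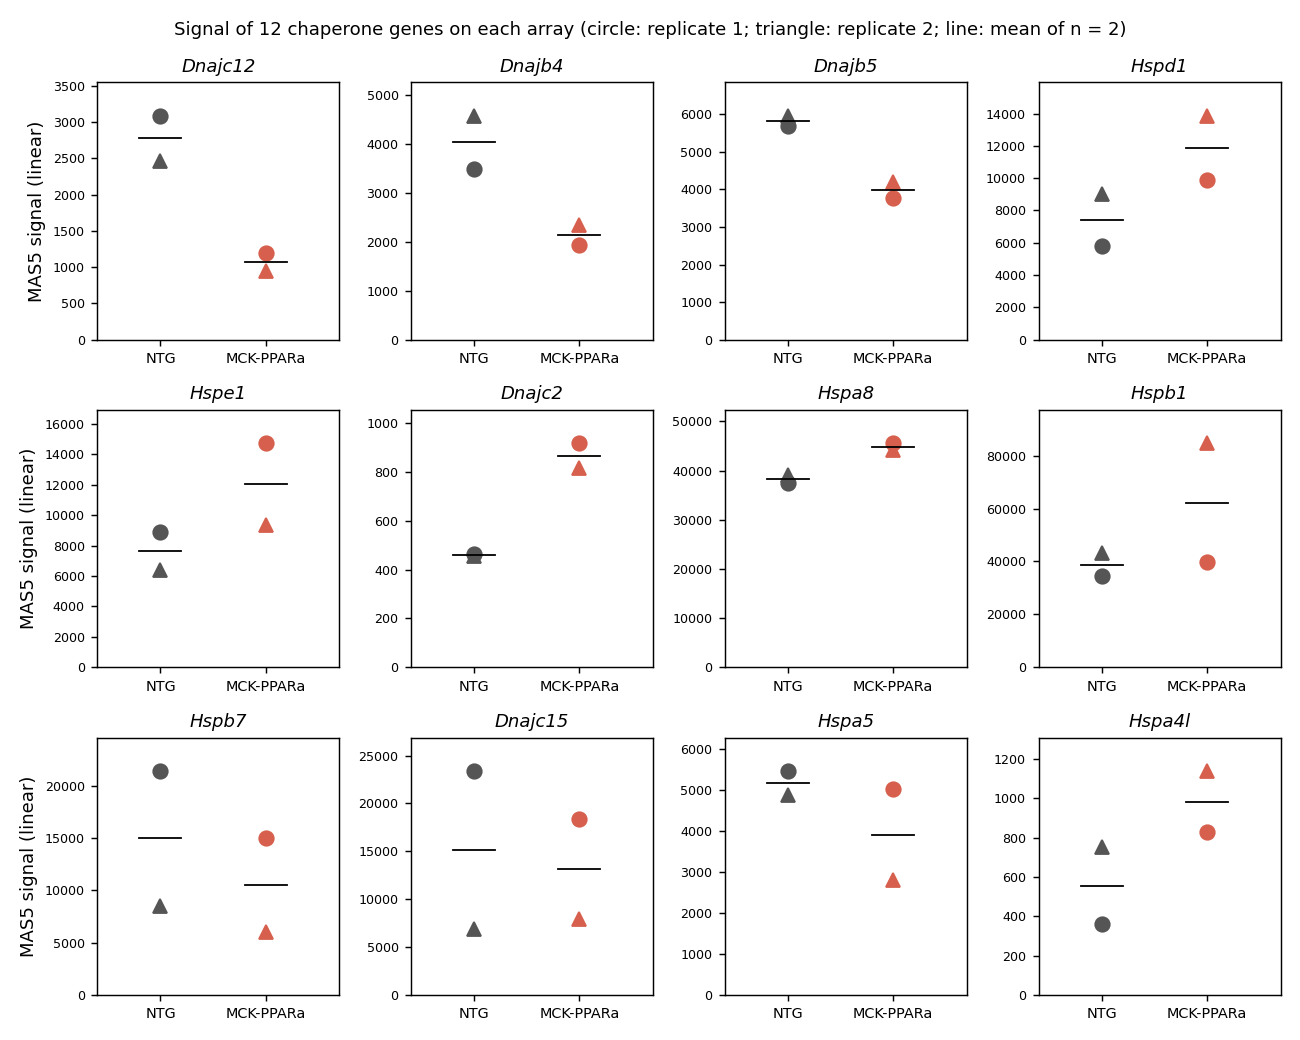
Deposited MAS5 signal (linear, from 0) of 12 chaperone genes on each of the 4 arrays, NTG in grey and MCK-PPARa in red. Circles are replicate 1, triangles replicate 2, and lines the mean of the 2 arrays of a genotype. Dnajc12, Dnajb4 and Dnajb5 lie lower and Hspd1, Hspe1, Dnajc2, Hspa8 and Hspa4l higher on both MCK-PPARa arrays, whereas Dnajc15 and Hspb7 separate by replicate number.

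The mitochondrial chaperonin subunits were higher in both transgenic samples without passing the test. Hspd1 (HSP60, Entrez gene 15510) read 5794 (replicate 1) and 9040 (replicate 2) in controls, against 9884 and 13852 with the transgene. No transgenic value fell under a control, and the difference was 0.69 ± 0.35 (95% interval -0.12 to 1.49; limma adjusted p = 0.90, and 0.12 with the replicate block). Hspe1 (HSP10, Entrez gene 15528), its lid, read 8891 and 6384 against 14711 and 9328 (0.63 ± 0.35, 95% interval -0.18 to 1.44; limma adjusted p = 0.94, and 0.16 with the replicate block). The differences were 0.76 and 0.61 for Hspd1 and 0.72 and 0.54 for Hspe1 in the replicate 1 and replicate 2 pairs. Single arrays moved both: Hspd1 was at 0.37 without NTG replicate 1 and 0.45 without MCK-PPARa replicate 2, and Hspe1 at 0.31 without MCK-PPARa replicate 1, 0.40 without NTG replicate 2 and 0.96 without MCK-PPARa replicate 2. A second Hspe1 probe set read 3689 and 2969 against 4892 and 4146, or 0.44, again without overlap. The Hspe1 start and the Hspd1 start at 55087932 flank the 18-base element printed above. The other members with a heat shock element, Dnajb6 and Hsph1, were at 0.061 and 0.43. A part of the element in these values was not tested.

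Hspa9 and Dnajc15, which also act in mitochondria, lay nearer to 0 with overlapping groups. Hspa9 (mortalin), the HSP70 of the mitochondrial matrix, read 6527 and 4772 in controls against 7558 and 4178 in transgenic muscle (0.010 ± 0.372), with a sign that turned under median centring (-0.092). Dnajc15, a J protein of the mitochondrial import motor, read 23385 and 6935 in controls against 18419 and 7901 in transgenic muscle (-0.078 ± 0.609; 0.00047 under quantile normalization). Over 7 mitochondrial members (Hspd1, Hspe1, Hspa9, Dnaja3, Dnajc11, Dnajc15 and Dnajc30) the median was 0.069, with 5 above 0 and 2 below. This grouping by compartment was made after values had been seen, and none of the 7 passed the test.

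Cytosolic HSP70 and its exchange factors gave mixed values. Hspa8 (Entrez gene 15481), the constitutive HSP70, read, on a probe set of the x type whose probes may match other transcripts too, 37457 and 39085 in controls against 45524 and 44240 in transgenic muscle. Its groups did not overlap, and the difference was 1.17-fold (0.23 ± 0.29, 95% interval -0.45 to 0.91). The other Hspa8 probe sets above the filter overlapped, at 0.31 and 0.15. The exchange factor Hspa4l read 359 and 751 against 828 and 1139 (0.82 ± 0.46), and its second probe set 528 and 689 against 851 and 844 (0.45), higher in the transgenic samples on both. Without NTG replicate 1 its difference was 0.34, and without NTG replicate 2 it was 1.29. Its relative Hspa4 lay on the other side on its brightest probe set (2121 and 2329 against 1844 and 1807, -0.28 ± 0.29). The other Hspa4 probe sets overlapped, at -0.50 and 0.30. Hsph1 read 2142 and 2660 against 4105 and 2564 (0.43 ± 0.34), with a difference of 0.92 in the replicate 1 pair and -0.052 in the replicate 2 pair. Without MCK-PPARa replicate 1 the Hsph1 difference was 0.10.

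The stress-inducible HSP70 genes gave differences of both signs. Hspa1a and Hspa1b are near-identical copies on chromosome 17, so which of them a probe set reads is uncertain. Hspa1a read 624 and 654 in controls against 462 and 864 in transgenic muscle (-0.0082 ± 0.4505). Hspa1b read 288 and 683 against 495 and 1060 (0.63 ± 0.57), while its other probe sets gave -0.53 and -0.20. Hspa1l, a testis-enriched relative in the same cluster, read 740 and 925 against 757 and 344 (-0.62 ± 0.48), and was at -0.12 without MCK-PPARa replicate 2. Hsp90aa1, the inducible cytosolic HSP90, was lower on both transgenic arrays (1718 and 2195 against 1259 and 1681, -0.40 ± 0.32), and its other probe sets overlapped at 0.13 and 0.079.

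Chaperones of the endoplasmic reticulum differed in sign. Hspa5 (BiP), the HSP70 of this compartment, read 5450 and 4859 in controls against 5005 and 2792 in transgenic muscle (-0.45 ± 0.35; 95% interval -1.28 to 0.37). The difference was -0.12 in the replicate 1 pair and -0.79 in the replicate 2 pair, and the second Hspa5 probe set read 2721 and 2838 against 2180 and 1516 (-0.59). Without MCK-PPARa replicate 2 the Hspa5 difference was -0.040, and without MCK-PPARa replicate 1 it was -0.87. Hsp90b1 (GRP94) read 1834 and 2660 against 2641 and 1883 (0.013 ± 0.338), with 0.51 and -0.48 in the replicate pairs. Dnajc3, which restrains the stress kinase PERK, read 862 and 1755 against 1331 and 1728 (0.29 ± 0.40), and its next probe set 623 and 967 against 509 and 296 (-0.89). The 3 members with a stress element in the windows above differed in sign on their brightest probe sets. On the next probe set all 3 lay below 0, with Hsp90b1 at -0.15. A part of the element in these values was not tested. Over 7 members of this compartment (these with Dnajb9, Dnajb11, Dnajc1 and Dnajc10) the median was 0.012, with 4 above 0 and 3 below.

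Of the 6 genes with an Hspb symbol 5 had a difference below 0 and Hspb1 one above 0, and none passed the test. The group goes by symbol, and the small heat shock protein gene Cryab, described below, is not in it. Hspb1 (HSP25 in mice, Entrez gene 15507), which binds actin and filamin, read 34479 and 43225 in controls against 39703 and 84603 in transgenic muscle (0.59 ± 0.41, 95% interval -0.37 to 1.54). The excess stood on the replicate 2 array (0.97) more than on the replicate 1 array (0.20), and its second probe set gave 0.20. Without MCK-PPARa replicate 2 the Hspb1 difference was 0.040, and without MCK-PPARa replicate 1 it was 1.13. Hspb2, a partner of the myotonic dystrophy kinase, read 10064 and 6467 against 8190 and 3570 (-0.57 ± 0.44). Hspb7, the cardiovascular heat shock protein that holds filamin C in place, read 21407 and 8536 against 14989 and 6028 (-0.50 ± 0.55). Hspb8, which works with Bag3 in the clearance of damaged muscle proteins, read 20319 and 16486 against 16087 and 17614 (-0.12 ± 0.30). Hspb3 and Hspb11 were at -0.31 and -0.37, and each of the 6 overlapped between the genotypes on its brightest probe set. The second Hspb1 probe set did not overlap (22806 and 23676 against 28081 and 25379). One further Hspb7 probe set did not overlap either (3805 and 4198 against 3315 and 2230, -0.54). Another Hspb7 probe set (-0.25) and the further Hspb8 probe sets overlapped.

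**Figure D3:**
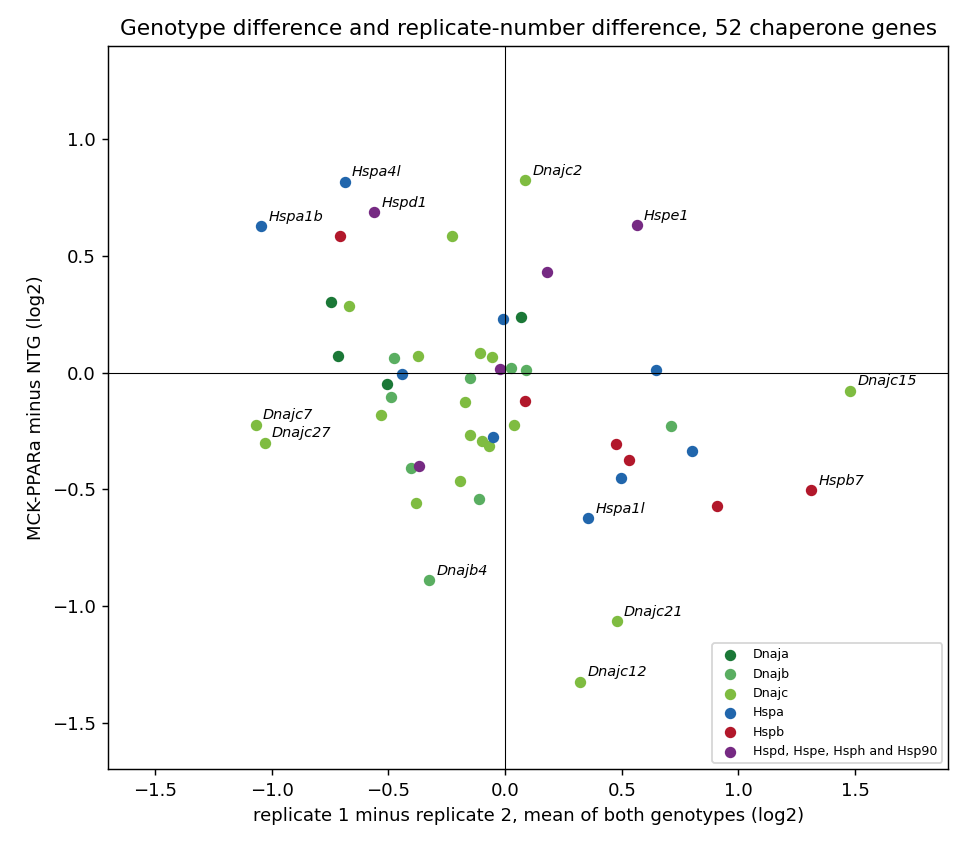
Difference between genotypes (vertical axis) against the difference between replicates 1 and 2, averaged over both genotypes (horizontal axis), of the 52 chaperone genes tested, both as log2(signal + 64.2) on equal scales. Each point is 1 gene, coloured by family. Dnajc15 (1.48) and Hspb7 (1.31) lie farthest to the right with genotype differences of -0.078 and -0.50, and Dnajc12 lies lowest with a replicate difference of 0.32.

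For many members the replicate number separated the arrays more than the genotype did. Dnajc15 was higher on the replicate 1 array by 1.74 in NTG and 1.21 in MCK-PPARa muscle, and Hspb7 by 1.32 and 1.30. Hspb2 followed with 0.63 and 1.18. On the other side, Dnajc7 had replicate differences of -0.89 and -1.25, and Dnajc27 of -0.65 and -1.41, in NTG and MCK-PPARa muscle. In 38 of the 52 members (73.1%) the replicate difference had the same sign in both genotypes, beside 68.4% of all genes tested. It was larger than the genotype difference in 28 members (53.8%), beside 57% of all genes. Samples with the same number are not said to share an animal, a litter or a day.

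Probe sets of the same chaperone gene often disagreed. Above the filter, 31 of the members had further probe sets, 45 in all. Of these 45, 21 (46.7%) had the sign of the brightest one, beside 64.1% of 4051 such probe sets over all genes. By gene, 12 of the 31 had 1 sign on each probe set above the filter: Dnajb4, Dnajb5, Dnajb6, Dnajc14, Dnajc27, Hspa4l, Hspa5, Hspa8, Hspb1, Hspb7, Hspe1 and Hsph1. For Dnajb6, a probe set counted here had both controls under the filter signal. The other 19 had the opposite sign on 1 or more, among them all 4 Dnaja genes, Dnajb1, Dnajc2, Dnajc3, Dnajc5, Hspa1b, Hspa4, Hspa9, Hspb8, Hsp90aa1 and Hsp90b1. None of the member probe sets passed when tested separately, and their smallest limma adjusted p was 0.35.

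**Figure D4:**
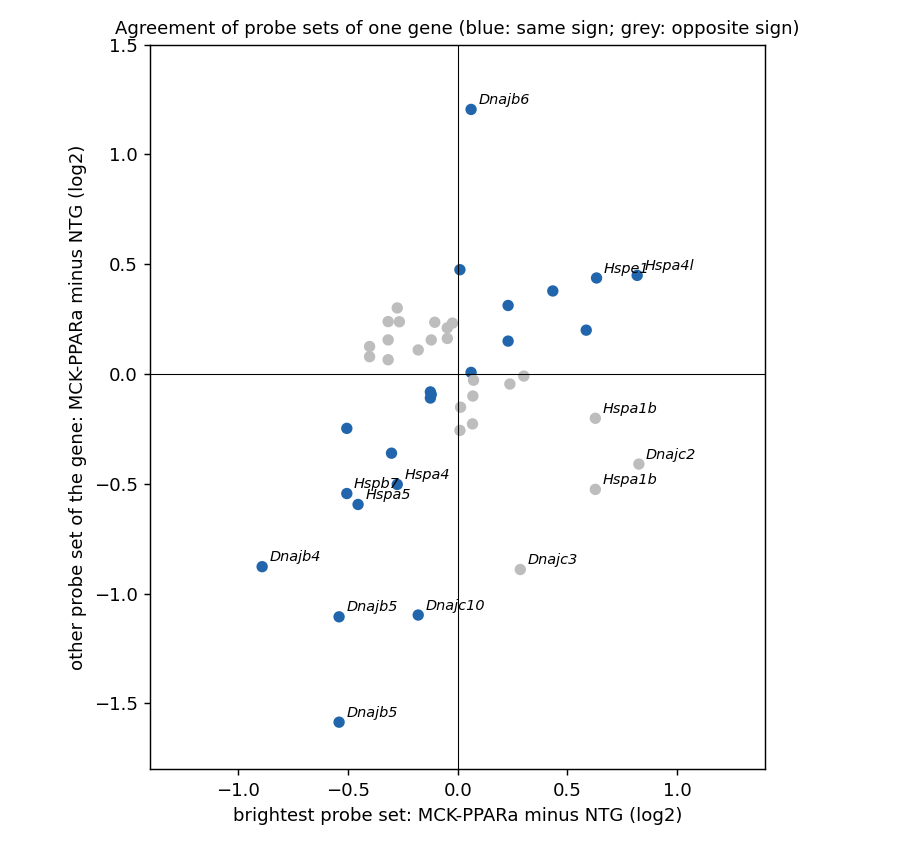
Difference between MCK-PPARa and NTG muscle for 45 further probe sets of chaperone genes (vertical axis) against that of the brightest probe set of the same gene (horizontal axis), as log2(signal + 64.2). Blue points share a sign and grey points do not. The blue points for Dnajb4 and Dnajb5 lie low on both axes, and the grey points for Hspa1b, Dnajc2 and Dnajc3 lie on opposite sides of 0.

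The 8 members that did not pass the filter were Dnajb3, Dnajb7, Dnajb13, Dnajc5b, Dnajc17, Dnajc24, Hspa12b and Hspa14. Several of them are known from testis or other tissues. Their signals ran from 53.7 for Hspa12b to 634 for Dnajb13 on single arrays. Without a filter all 60 members were tested among 12393 genes, and none passed. Dnajb13, a J protein of sperm flagella, differed by 1.16, with 634 on 1 MCK-PPARa array, 85.1 on the other and 66.4 and 96.2 in the controls. Dnajc17 was lower in both transgenic samples (80.4 and 67.9 against 156 and 221).

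Partners of the chaperones, from lists of textbook cochaperones and folding factors, did not pass the limma test either. Heat shock factors were represented by Hsf2 and Hsf4 (Hsf1 was not analysed here). Hsf2 was under the filter, and Hsf4 read 500 and 604 in controls against 869 and 771 in transgenic muscle (0.52 ± 0.39), without overlap. Hsbp1, an inhibitor of the factors, read 8221 and 3447 against 8935 and 2842 (-0.077 ± 0.591). These were the 2 regulators tested.

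Of 24 cochaperones of HSP70 and HSP90 tested, 10 were above 0 and 14 below, with a median of -0.11 and 0 past the threshold. Sgta, which hands membrane proteins to their insertion route, read 4620 and 6581 against 6948 and 10093 (0.60 ± 0.34). Bag1, a nucleotide exchange factor, was at 4619 and 5499 against 8392 and 6489 (0.54 ± 0.30), and both lay above the controls on each transgenic array. Fkbp5, an HSP90 partner and glucocorticoid target, read 2546 and 2947 against 1750 and 2078 (-0.51 ± 0.30). Bag3, the partner of Hspb8, read 9760 and 7114 against 7177 and 7734 (-0.16 ± 0.31), with overlap as for Hspb8 itself.

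The cytosolic chaperonin CCT and its helper prefoldin formed 1 list of 14 tested genes, with a median of -0.27, 3 above 0 and 11 below, and 0 past the threshold. Vbp1, a prefoldin subunit, read 2609 and 5425 in controls against 920 and 2639 in transgenic muscle (-1.23 ± 0.54; limma adjusted p = 0.85, and 0.022 with the replicate block), so the groups overlapped narrowly. The CCT subunit Cct6a was higher in both transgenic samples (0.37 ± 0.29) and the prefoldin subunit Pfdn1 lower in both (-0.31 ± 0.29).

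The list for folding and stress in the endoplasmic reticulum had 26 tested genes, a median of -0.12, 8 above 0 and 18 below, and 0 past the threshold. Sec61b, a subunit of the protein-conducting channel, read 10878 and 9029 in controls against 3228 and 5215 in transgenic muscle (-1.26 ± 0.34; limma adjusted p = 0.40, and 0.031 with the replicate block). Atf4, the transcription factor of the integrated stress response, read 8653 and 8103 against 4571 and 3895. The groups did not overlap, at a 1.97-fold lower level (-0.98 ± 0.29; limma adjusted p = 0.49, and 0.034 with the replicate block), with -0.91 and -1.04 in the replicate pairs. Xbp1, the spliced factor of the unfolded protein response, read 7562 and 5844 against 5827 and 3416 (-0.57 ± 0.35), also lower on both. These 2 members of the list, Sec61b and Atf4, passed with the block and were also those at an unadjusted limma p under 0.05, of which the other partner lists held 0. They are 2 of 26, beside 2.51% of all genes with the block and 5.83% at that unadjusted p.

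Mitochondrial folding factors and proteases had a median of 0.028 over 14 tested genes, 7 above 0 and 7 below. Spg7 (0.77 ± 0.47) and Hscb (0.70 ± 0.38), a J protein of iron-sulphur cluster assembly outside the Dnaj names, were higher in both transgenic samples. Spg7 was dim, at 512.2 and 345 in controls against 610.5 and 950.6 in transgenic muscle, with NTG replicate 2 under the filter signal of 455.3. The protease subunit Afg3l2 (-0.53 ± 0.32) was lower in both transgenic samples. The αB-crystallin gene Cryab, a small heat shock protein without an Hspb symbol here, read 19917 and 31918 in controls against 36629 and 51717 in transgenic muscle. Both transgenic samples exceeded both controls (0.79 ± 0.36; limma adjusted p = 0.89, and 0.072 with the replicate block), with 0.88 and 0.70 in the replicate pairs. Its list of muscle partners had a median of -0.16 over 8 tested genes, with Flnc at -0.37 ± 0.39 and Synpo2 at -0.31 ± 0.32, and 0 passed.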

How the data were processed

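Per the submitters' processing notes the authors used MAS5, which gives 1 signal intensity per probe set. Its version and settings were not given in the sources used here, nor were detection calls. Intensities as deposited were linear, with 2% trimmed means from 1500.6 to 1500.7 and medians from 581.5 to 700.3, and were used without further normalization.

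Gene names came from GEO's annotation of the array (probe sets: 20380 with 1 symbol; no symbol changed by Entrez ID). Values were taken as log2(signal + 64.2), the offset being 10% of the median. Probe sets with a mean signal under the 40th percentile of those that are not controls were left out and the brightest stood for its gene, leaving 8402 genes. limma 3.58.1 (R 4.3.3; lmFit, eBayes with a variance trend, 7.78 degrees of freedom, two-sided, Benjamini-Hochberg over all genes, threshold 0.05) compared the genotypes, and was tested on simulated data. An exact permutation test of 2 against 2 cannot go below 0.333. The number of arrays limits the precision.

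Described in full were, per family, the 3 brightest and the 3 members with the smallest p. From each partner list came up to 3 tested genes with the smallest unadjusted limma p, so these are not typical of their lists. Bag3 and Cryab were named in any case. Genes named beyond this were chosen after their values were seen. The members and lists were chosen with earlier results of these data known. Alternatives covered offset, filter, normalization, variance trend, replicate block, probe set rule and single arrays left out.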

Additional observations from a re-analysis of the deposited data

How the results depend on the processing

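Of 361 values of 26 chaperone genes under 14 alternatives, 337 kept their direction and their side of the threshold. No filter, the stricter filter, no variance trend and the replicate block cannot change a gene's difference, so direction was fixed under them. The smallest limma adjusted p of a member was 0.30 in the main fit, so keeping the side of the threshold says little. The count of 337 is therefore no measure of robustness. The stricter filter left Dnajc2, Hspa1l and Hspa4l untested. No member passed in any of the alternatives except Dnajc12 with the replicate block (-1.33, limma adjusted p = 0.017), where the count of members past the threshold was 1 in place of 0. The count over all genes was 5, and it was 211 with the replicate block, 2 under quantile normalization, 1 under median centring, 3 without a variance trend and 16 with all probe sets of a gene averaged, and ran from 72 to 150 with 1 array left out. Arrays of the same number deviated together from their group means (r = 0.47, taken across genes, which are no replicates), but only 2 pairs exist and no label says that the number marks a shared animal or day, so the pairing is not established. Median centring moved the median of all genes by -0.10 and the Hspb median to -0.44, and turned Dnaja3 (-0.033), Dnajb6 (-0.041) and Hspa9 (-0.092). Quantile normalization turned Dnajc15 (0.00047). Averaging all probe sets turned Dnaja3 (-0.016) and Dnaja4 (0.11). With 1 array left out the medians ran from -0.23 to 0.37 for Dnaja, -0.26 to -0.079 for Dnajb, -0.24 to 0.051 for Dnajc, -0.64 to 0.021 for Hspb, -0.29 to 0.12 for Hspa and 0.10 to 0.45 for the chaperonins and large chaperones. Values that turned with 1 array left out ran from -0.36 to 0.96 for Dnaja1, -0.37 to 0.51 for Dnaja3, -0.50 to 0.41 for Dnaja4, -0.22 to 0.35 for Dnajb6, -0.95 to 0.79 for Dnajc15, -1.01 to 0.41 for Dnajc27, -0.41 to 0.43 for Hspa9, -1.16 to 0.021 for Hspb2, -1.16 to 0.16 for Hspb7 and -0.27 to 0.030 for Hspb8. The cause of these shifts was not tested beyond the arrays named. Ranking probe sets by mean log2 in place of mean signal, and testing probe sets separately, were chosen after seeing the data and gave 5 and 4 calls and 0 among the members.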

Other observations

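Dnajc19, a J protein of the mitochondrial import motor, shares its 2 probe sets with a pseudogene (Dnajc19-ps) in the annotation and is therefore no member. The brighter read 1492 and 1799 in controls against 1344 and 926 in transgenic muscle, which is -0.53 with both transgenic samples below both controls. The dimmer read 173 and 409 against 402 and 345, a difference of 0.38 with overlap, so the probe sets gave opposite signs. Neither was tested.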
